A study of Mus musculus with 135 samples.

Results

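Dph6 and the other genes of diphthamide synthesis were followed through the RNA of single mouse oocytes, together with Eef2, which encodes the protein that carries the modification. The 8 genes, Dph1, Dph2, Dph3, Dnajc24, Dph5, Dph7, Dph6 and Eef2, were taken by symbol from the 53715 genes of the oocyte count tables. Dph6 was chosen by its counts, which were far lower in old Tet1 knockout oocytes than in old wild-type ones, and the others because they act on the same residue or carry it. That comparison selected Dph6, so the members' values are given there as a description, and nothing is read from their tests in it.

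RNA-seq was run on single ovulated (metaphase II) oocytes, and 94 libraries in 13 sets could be assigned to a group, a set being the oocytes whose titles share an identifier. All females had a C57BL6/129 background, and were 10 to 12 months old (old) or 2 to 4 months old (young). Old Tet1-/- females (Tet1KO) gave 6 oocytes (5 of set Old_Tet1-/-_209 and 1 of set Old_Tet1-/-_315), old Tet2-/- females (Tet2KO) gave 7 (set S161) and old wild-type (WT) females gave 12 (7 of set Old_WT_247 and 5 of set Old_WT_365). Young Tet1KO gave 15 oocytes (7 of set Young_Tet1-/-_201 and 8 of set T146), young Tet2KO gave 16 (8 each of sets T213 and T214) and young WT gave 38 (14 of set Young_WT__246 and 8 each of sets T148, T211 and T231). Sets are not tied to single females by the labels, so the errors and p-values measure the spread between sets. The series also holds 1 WT library and 1 library labelled Tet2KO of pooled primordial germ cells (PGCs), the precursors of eggs and sperm, at E13.5.

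Gene counts per oocyte summed to between 2354503 and 12472307, with a median of 3985321. All 10 oocyte markers were detected in each group, and their summed level ran from 8257 to 24320 CPM, where CPM are counts scaled to the library total. Markers of cumulus and granulosa cells summed to at most 86.5 CPM in any oocyte. Those of macrophages reached 1190 CPM in an oocyte of set S161, but no more than 21.5 CPM in any other group, and their part in the old Tet2KO values was not tested. Tet1 was counted 1 time in the 6 old Tet1KO oocytes and 2 times in the 15 young ones, against 1.40 ± 0.346 CPM in old WT sets (SD, n = 2) and 3.11 ± 1.19 CPM in young WT sets (n = 4). Tet2 stood at 1.27 CPM in the old Tet2KO set and averaged 1.24 CPM in the young Tet2KO sets, against 4.03 CPM in old WT and 2.41 CPM in young WT, so it was lower but not absent. It also averaged 1.62 CPM in old Tet1KO and 1.68 CPM in young Tet1KO, and stood at 1.53 CPM in the young WT set Young_WT__246. The Tet2 level therefore does not check the Tet2KO label. Oocyte Young_Tet1-/-_201_8 of young Tet1KO stood apart from the rest of its set in Dph6, and results that rest on it are given with and without it.

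Diphthamide is a modified histidine found only in elongation factor 2, the GTPase that moves the ribosome along the mRNA, and it is the residue that diphtheria toxin attacks. In the pathway worked out in yeast, Dph1 and Dph2 attach a carbon chain to the histidine with the help of Dph3 and a J-domain protein (Dnajc24 in the mouse). Dph5 then methylates the intermediate, Dph7 takes a methyl group off again, and Dph6 finishes the residue by adding an amide with the energy of ATP.

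Dph6 lies at chr2:114516416-114654964 on the minus strand (mm10). GENCODE M21 gives it 6 transcripts, 3 of them protein-coding, and the deposited counts join all exons of the gene, so isoforms could not be told apart. On the same chromosome lie Dph7, at chr2:24962400-24972163 on the plus strand, and Dnajc24, at chr2:105966709-106003549 on the minus strand. The others are spread over the genome, with Dph1 at chr11:75177643-75191241 (minus), Dph2 at chr4:117888643-117892032 (minus), Dph3 at chr14:32080566-32085729 (minus), Dph5 at chr3:115887837-115934361 (plus) and Eef2 at chr10:81176631-81182498 (plus). The 250 bases before its start are shown because TET enzymes act on methylated cytosine, which lies mostly in CG pairs, written here in capitals. The window of Zfp770, the nearest tested gene, is shown beside it because Zfp770 stood high in most of the oocytes that had little Dph6. Both sequences are RefSeq's for GRCm38.p6, read 5′ to 3′ on the minus strand, Dph6 from chr2:114654965-114655214 and Zfp770 from chr2:114201433-114201682.
Dph6: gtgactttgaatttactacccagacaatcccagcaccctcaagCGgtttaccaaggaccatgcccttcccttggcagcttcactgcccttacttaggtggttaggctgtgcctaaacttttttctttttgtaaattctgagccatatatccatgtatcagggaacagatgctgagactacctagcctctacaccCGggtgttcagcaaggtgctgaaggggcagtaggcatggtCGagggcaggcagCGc
Zfp770: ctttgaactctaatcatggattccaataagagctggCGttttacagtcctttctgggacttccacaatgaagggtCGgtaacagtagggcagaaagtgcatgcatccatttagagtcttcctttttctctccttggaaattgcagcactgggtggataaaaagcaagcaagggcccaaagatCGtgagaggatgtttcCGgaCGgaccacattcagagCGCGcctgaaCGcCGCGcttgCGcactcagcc

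The Dph6 window holds 4 CG pairs, and 62.2% of the 32851 RefSeq windows of that length hold at least as many (median 6). It had the fewest among the members matched in the table, which were 7 of 8 (not Dph2). Dnajc24 had 7, Dph7 had 11, Dph1 had 16, Dph5 had 18 and Eef2 had 23, while the windows of 2 Dph3 starts had 13 and 19. The window of Zfp770 had 11. A CG pair reads the same on both strands, and methylation itself was not measured in the files used here.

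Dph6 was an abundant transcript of most of these oocytes. By its mean level over the 94 oocytes it ranked 387 of 14418 genes tested, above 97.3% of them. Per length it led the group by far, at a mean of 56.4 CPM per kb of exon. Eef2 stood at 3.49, Dph3 at 3.39 and Dph7 at 2.40 CPM per kb, while Dph1 (0.708), Dph2 (0.307), Dnajc24 (0.280) and Dph5 (0.181) stayed below 1. Dph6 therefore made up 83.5% to 92.6% of the summed CPM per kb of the 7 synthesis genes in 10 of the 13 sets. Its share was 16.1% in set Old_Tet1-/-_209, 15.6% in set Old_Tet1-/-_315 and 51.1% in set Young_Tet1-/-_201. In those old Tet1KO sets Dph6 stood at 1.196 and 1.227 CPM per kb, and Dph1 at 1.356 and 1.217 CPM per kb.

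**Figure D1:**
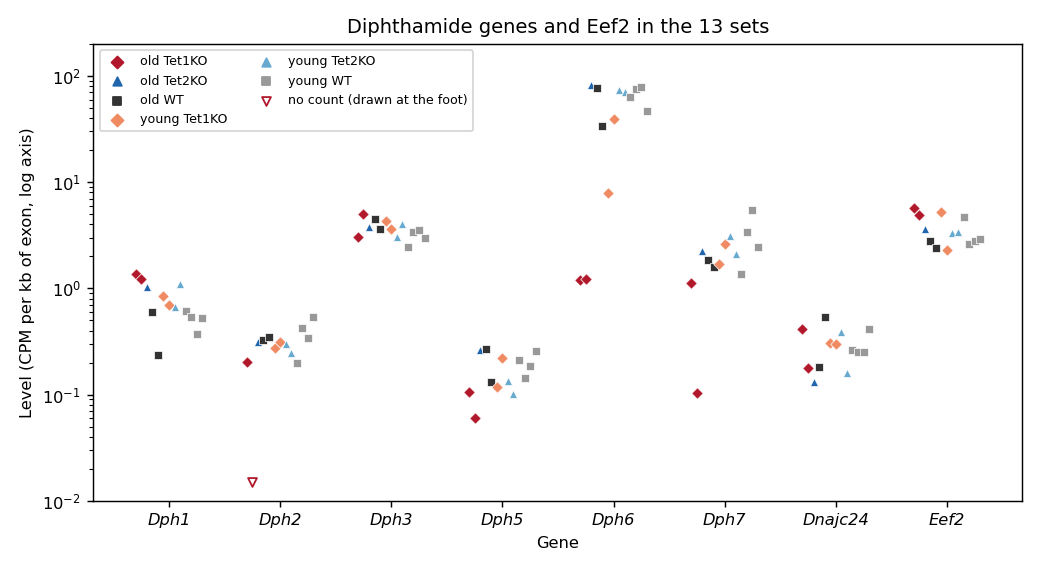
Level of each of the 8 genes in the 13 sets, in CPM per kb of exon on a log axis, where each symbol is the summed counts of 1 set and its colour and shape give the group. Dph6 stands above all other members in most sets, at 56.4 CPM per kb on average over the oocytes, and drops to the level of Dph1 in old Tet1KO.

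In old Tet1KO oocytes Dph6 lay far below old WT but was counted in every oocyte. The 5 oocytes of set Old_Tet1-/-_209 had 10.35, 4.41, 15.7, 6.245 and 6.72 CPM, and the oocyte of set Old_Tet1-/-_315 had 9.09 CPM. The 12 old WT oocytes ran from 153.7 to 872.1 CPM with a median of 368.9. The ranges of the groups did not overlap. Summed by set, old Tet1KO averaged 8.97 ± 0.163 CPM and old WT 413.8 ± 229.3 CPM (SD, n = 2 each), so the old Tet1KO level was 2.17% of that in old WT, a 46.1-fold gap. The old WT sets themselves differed, at 575.9 CPM in set Old_WT_247 and 251.7 CPM in set Old_WT_365. The fitted log2 change was -5.36 (SE 0.62). Of the 7 members tested, 1 was called, Dph6 itself, which was chosen for this difference, so nothing is read from the call. The share of all genes called was 0.0347%.

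**Figure D2:**
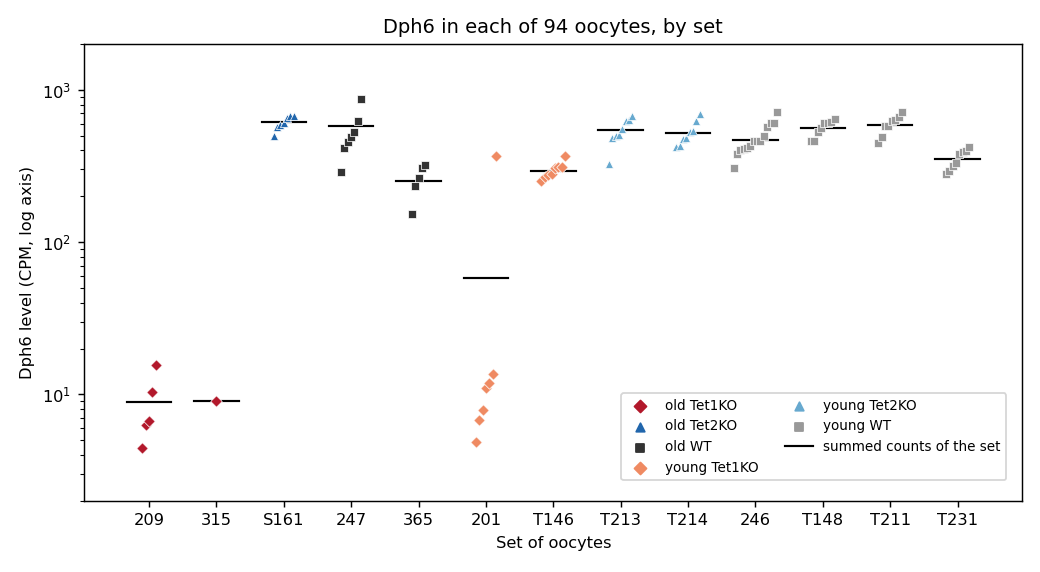
Dph6 level in each of the 94 oocytes (points, CPM on a log axis), by set and group, with a line for the summed counts of each set and sets of numbered names drawn by their number. The oocytes of sets Old_Tet1-/-_209 and Old_Tet1-/-_315 and 6 of the 7 of set Young_Tet1-/-_201 lie between 4.41 and 15.7 CPM, and all others lie at 153.7 CPM or more.

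Low Dph6 was not confined to old oocytes, nor found in every Tet1KO set. Across all 94 oocytes the values left a gap with no oocyte in it, between 15.7 and 153.7 CPM. Below it were 12 oocytes, with 19 to 94 Dph6 counts each, and above it 82, with 575 counts or more. The 12 were the 5 of set Old_Tet1-/-_209, the 1 of set Old_Tet1-/-_315 and 6 of the 7 of the young Tet1KO set Young_Tet1-/-_201. None came from Tet2KO or WT.

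Within set Young_Tet1-/-_201 the low oocytes had 11.1, 7.93, 4.84, 13.7, 11.9 and 6.82 CPM, whereas Young_Tet1-/-_201_8 had 365.3 CPM. That 1 oocyte held 1784 of the set's 2080 Dph6 counts, or 85.8%, and without it the set stood at 9.57 CPM in place of 58.1 CPM. The other young Tet1KO set, T146, had no low oocyte, at 250.1 to 368.6 CPM with a median of 292.9. Tet1 had 0 counts in set Young_Tet1-/-_201 and 2 in set T146. These sets also differ in naming series and count table, and the cause of their difference in Dph6 was not tested.

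Young Tet1KO therefore averaged 174.5 ± 164.5 CPM of Dph6 (SD, n = 2 sets), against 492.1 ± 106.5 CPM in young WT (n = 4). Young WT oocytes ran from 281.3 to 715.8 CPM with a median of 462.6. The log2 change was -1.52 (SE 0.48), which did not pass edgeR's quasi-likelihood test after Benjamini-Hochberg adjustment (adjusted p = 0.967). None of the 7 members tested was called there, beside 0.0208% of all genes, although 691 genes had an unadjusted p under 0.05. The size rests on set Young_Tet1-/-_201, since the log2 change was -0.74 without that set, -2.95 without set T146 and -0.73 without the young WT set Young_WT__246. By naming series it was -0.72 among the T-series sets and -3.02 among the numbered sets. With no filter on low counts 252 genes were called, Dph6 among them (adjusted p = 1.81e-07). Without oocyte Young_Tet1-/-_201_8 the change was -2.07 (SE 0.85, adjusted p = 0.919). Against young Tet2KO (533.2 ± 16.8 CPM, n = 2) the change of young Tet1KO was -1.34 (SE 0.53, adjusted p = 0.522), with no member called beside 0.0% of all genes. It was -0.79 without set Young_Tet1-/-_201, -0.79 without set Young_WT__246, -3.01 without set T146 and -0.79 among the T- and S-series sets alone.

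Tet2KO oocytes held Dph6 at levels within the range of WT at both ages. The 7 oocytes of the old set S161 ran from 499.5 to 677.1 CPM with a median of 605.4, and the 16 young ones from 325.6 to 696.4 CPM with a median of 515.2. Both ranges lay inside those of WT oocytes of the same age. The log2 change was 0.57 (SE 0.69, edgeR adjusted p = 1) in old Tet2KO against old WT, where the lone set S161 was assumed to vary like the others, and -0.18 (SE 0.47, adjusted p = 0.955) in young Tet2KO against young WT. The old value was 0.10 without set Old_WT_365 and 1.24 without set Old_WT_247. The young value was -0.46 without set T231 and turned to 0.053, 0.055 and 0.063 without sets Young_Tet1-/-_201, T146 and Young_WT__246. No member was called in either comparison, beside 0.0139% of all genes in each. Old against young Tet2KO differed in Dph6 by 0.21 (SE 0.62, adjusted p = 1), with 0.00694% of all genes called and no member among them.

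With age in WT, Dph6 differed by less than the spread between sets. Old WT sets averaged 413.8 CPM against 492.1 CPM in young WT, and the log2 change fitted with the term for the naming series was 0.30 (SE 0.52, edgeR adjusted p = 0.849). It was -0.28 without that term and -0.25 among the numbered sets alone. Only young WT and young Tet1KO have sets in both series, so the term rests on these groups, the low set Young_Tet1-/-_201 included. Leaving out 1 set gave 2.00 without Young_WT__246, 0.74 without Old_WT_365, -0.42 without Old_WT_247, -0.28 without Young_Tet1-/-_201 and -0.24 without T146. Without Young_WT__246 the term rests on young Tet1KO alone, and without Young_Tet1-/-_201 or T146 on young WT alone. None of the 7 members tested was called, beside 0.0416% of all genes.

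Over the 6 comparisons without old Tet1KO, members with an unadjusted p under 0.05 in edgeR were Dph6 (p = 0.00879) in young Tet1KO against young WT, Dph6 (p = 0.0289) in young Tet1KO against young Tet2KO and Eef2 (p = 0.00200) in old WT against young WT. Of all genes, 1346 were below it in young Tet1KO against young Tet2KO and 1873 in old WT against young WT. No member was below it in young Tet2KO against young WT, old Tet2KO against old WT or old against young Tet2KO, where 835, 267 and 382 genes were. In these 6 comparisons DESeq2 called 1 member, Eef2 in old WT against young WT, where it called 331 genes in all.

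Of the genes of the first step, Dph1, Dph2 and Dnajc24 stayed below 4 CPM in every set. Dph1, a subunit of the enzyme that starts the modification, stood at 3.65 CPM in set Old_Tet1-/-_209 and 3.27 CPM in set Old_Tet1-/-_315, against 1.61 CPM in set Old_WT_247 and 0.629 CPM in set Old_WT_365 of old WT. Both old Tet1KO sets were thus above both old WT sets. Single oocytes overlapped, at 0.927 to 10.45 CPM in old Tet1KO and 0.240 to 2.49 CPM in old WT. In the other groups Dph1 stood at 2.77 CPM in old Tet2KO, 2.09 ± 0.287 CPM in young Tet1KO, 2.40 ± 0.832 CPM in young Tet2KO and 1.38 ± 0.271 CPM in young WT. The log2 change in old Tet2KO against old WT was 1.27 (SE 0.59, edgeR adjusted p = 1) and in young Tet2KO against young WT 0.85 (SE 0.42, adjusted p = 0.822), neither of which passed. Dph1 shares 969 exon bases with Ovca2 on the same strand, and reads there count for both genes.

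Dph2, the partner of Dph1 in that enzyme, was lower still. It had 13 counts in set Old_Tet1-/-_209 (0.616 CPM) and 0 in set Old_Tet1-/-_315, where 3 counts would be 0.364 CPM, against 0.985 CPM in set Old_WT_247 and 1.05 CPM in set Old_WT_365. Young WT sets ran from 0.605 to 1.64 CPM. At such counts single sets decide the values, and no test of Dph2 passed in edgeR in the 6 comparisons without old Tet1KO (adjusted p from 0.864 to 1).

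Dph3, the small iron protein that passes electrons to the Dph1 and Dph2 enzyme in yeast, had the narrowest range of set levels, in proportion, among the synthesis genes. It stood at 10.9 and 18.2 CPM in the old Tet1KO sets Old_Tet1-/-_209 and Old_Tet1-/-_315, against 16.3 and 12.99 CPM in the old WT sets Old_WT_247 and Old_WT_365. The old Tet1KO values enclosed those of old WT. All 13 sets lay between 8.72 and 18.2 CPM, and the log2 change in young Tet1KO against young WT was 0.46 (SE 0.30, edgeR adjusted p = 0.967). Dph3 shares 320 exon bases with Oxnad1 on the other strand, which had 1290 counts in all against 5276 for Dph3, and counting without strand cannot divide them.

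Dnajc24, the J-domain co-chaperone of the first step, never reached 1 CPM in any set. With 166 counts over the 94 oocytes and set levels of 0.181 to 0.734 CPM, it was the one member below the level needed for testing, which was 1 CPM in at least 2 sets. It stood at 0.405 ± 0.231 CPM in old Tet1KO and 0.490 ± 0.344 CPM in old WT (SD, n = 2 sets each), so no difference was detectable at this depth. It shares 84 exon bases with Dcdc5 on the other strand.

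Dph5, the methyltransferase of the pathway, had 0.853 CPM in set Old_Tet1-/-_209 and 0.485 CPM in set Old_Tet1-/-_315, against 2.13 CPM in set Old_WT_247 and 1.05 CPM in set Old_WT_365. Both old Tet1KO sets were below both old WT sets, on 18 and 4 counts. It stood at 2.13 CPM in old Tet2KO, 1.36 ± 0.577 CPM in young Tet1KO, 0.941 ± 0.188 CPM in young Tet2KO and 1.602 ± 0.378 CPM in young WT. The log2 change of young Tet2KO against young WT was -0.88 (SE 0.49, edgeR adjusted p = 0.832). A930005H10Rik overlaps 294 of its exon bases on the other strand and had 572 counts, against 620 for Dph5.

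Dph7, which acts between Dph5 and Dph6, varied widely among the young WT sets. It had 2.65 CPM in set Old_Tet1-/-_209 and 0.242 CPM (2 counts) in set Old_Tet1-/-_315, against 4.35 CPM in set Old_WT_247 and 3.72 CPM in set Old_WT_365. Old Tet1KO was thus lower in both sets, by very unequal amounts. Young WT sets spanned 3.21 to 13 CPM, a range that took in both young Tet2KO sets (7.43 and 5.01 CPM), both young Tet1KO sets (4.00 in set Young_Tet1-/-_201 and 6.16 in set T146) and the old Tet2KO set (5.31). No test of Dph7 passed in the 6 comparisons without old Tet1KO (edgeR adjusted p from 0.903 to 1).

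As a description of the comparison that chose Dph6, 6 of the 7 members tested (all but Dph3) had old Tet1KO sets wholly outside the range of the old WT sets. Of all 14418 genes tested, 41.4% did so with 2 sets against 2. Dph1 and Eef2 were higher in old Tet1KO, and Dph2, Dph5, Dph6 and Dph7 lower.

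Eef2, the gene of the modified protein itself, ranged from 7.61 to 18.9 CPM among the 13 sets. It stood at 18.9 and 16.4 CPM in the old Tet1KO sets Old_Tet1-/-_209 and Old_Tet1-/-_315, against 9.20 and 7.91 CPM in the old WT sets Old_WT_247 and Old_WT_365. Old Tet1KO sets were both higher, while single oocytes overlapped (7.03 to 39.5 CPM in old Tet1KO, 4.24 to 14.2 CPM in old WT). The young Tet1KO sets stood at 17.4 CPM in set Young_Tet1-/-_201, a numbered set, and 7.61 CPM in set T146, of the T-series. In set Young_Tet1-/-_201, oocyte Young_Tet1-/-_201_8 had 14.7 CPM of Eef2, within the 11.1 to 35.6 CPM of the 6 oocytes with low Dph6.

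Young WT also held an Eef2-rich set, Young_WT__246, at 15.5 CPM, against 8.68, 9.29 and 9.63 CPM in sets T148, T211 and T231. Like Young_Tet1-/-_201 it is a numbered set, but its Dph6 stood at 471.5 CPM. Young T-series sets, those of Tet2KO included, had at most 11.25 CPM of Eef2. With the naming series term, Eef2 changed by -0.05 on the log2 scale (SE 0.21) in young Tet1KO against young WT. Old WT against young WT gave a log2 change of -1.05 (SE 0.26), with p = 0.00200 before adjustment and an adjusted p = 0.205 in edgeR. DESeq2 called it (adjusted p = 0.0174), among 331 genes called in all, where edgeR called 6. Without the naming series term the change was -0.37 (SE 0.36). The change in Tet1KO against WT was larger in old than in young oocytes by 1.25 on the log2 scale (SE 0.32). That contrast uses the old sets that chose Dph6, so nothing is read from its tests, in which edgeR called no member and 0.0% of all genes, with 841 genes at an unadjusted p under 0.05.

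Transcripts of 90 ribosomal protein genes summed to 3795, 7488 and 4571 CPM in oocytes Young_WT__246_10, Young_WT__246_11 and Young_WT__246_15, against at most 2364 CPM in the other 91. Eef2 stood at 11.6, 10.9 and 13.4 CPM in those 3 oocytes, while the 94 oocytes together had a median of 11.02 CPM and reached 41.4 CPM.

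**Figure D3:**
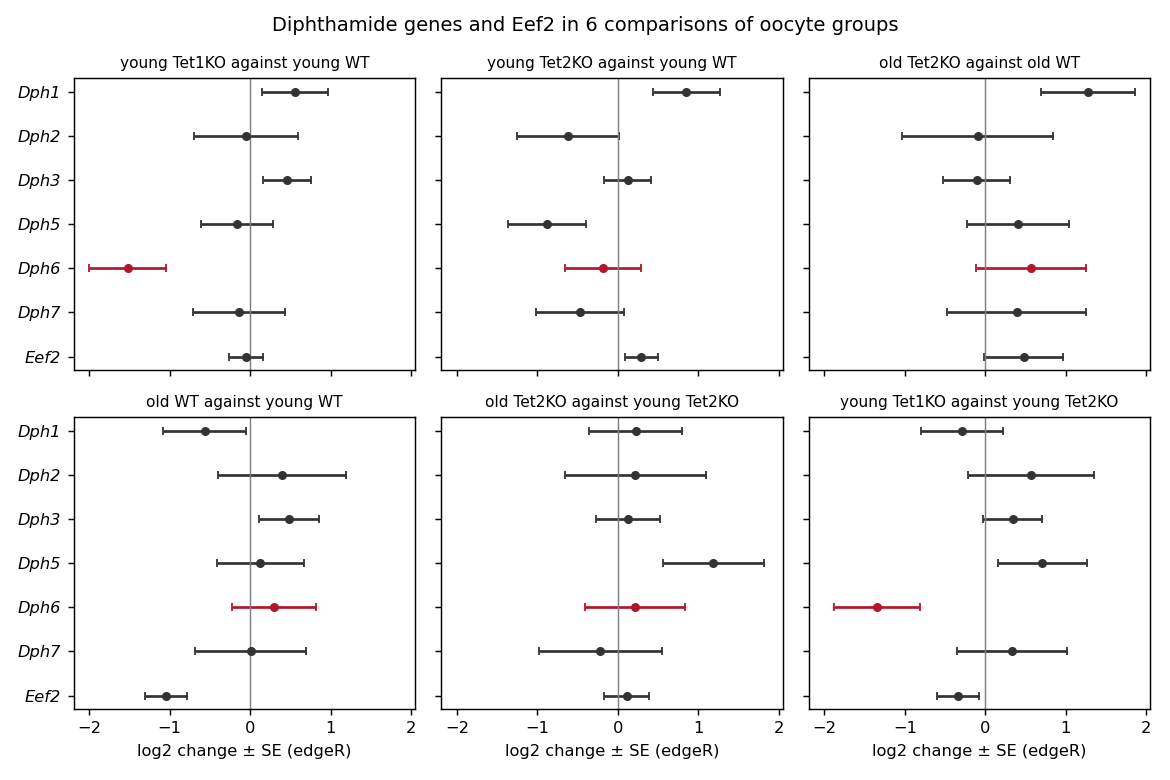
Log2 change of the 7 members tested with its SE (edgeR, 13 sets) in 6 comparisons, each panel named by the groups it compares, with Dph6 in red. Dph6 is lowest in the panels of young Tet1KO, at -1.52 against young WT and -1.34 against young Tet2KO, and Eef2 is lowest in old WT against young WT, at -1.05, and no member passed the adjusted test.

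No gene of a list of 9 other elongation factors and enzymes that modify them passed the test. The list holds 6 factor genes, the kinase Eef2k and the methyltransferases Eef2kmt and Eef1akmt1. All but Eef1akmt1 were tested, and none of these 8 was called in any of the 8 comparisons, with 0 to 2 of them at an unadjusted p under 0.05 in each (edgeR). Of all genes tested, 0.0% to 0.0416% were called in these comparisons, so nothing is read from the absence of a call. The median log2 change of the 8 in young Tet1KO against young WT was -0.11, beside 0.003 for all genes. In old Tet1KO against old WT it was -0.02, beside -0.01. Single genes ran from -2.26 to 0.33 in the old comparison. The lowest, named after its values were seen, was Eif5a2, a relative of Eif5a, at 0.805 CPM in set Old_Tet1-/-_209 and 0 counts in set Old_Tet1-/-_315, against 3.26 CPM in set Old_WT_247 and 1.83 CPM in set Old_WT_365. Eif5a, the factor that carries the modified residue hypusine, stood at 734.5 CPM in old Tet1KO against 658.8 CPM in old WT. Eef1b2, an exchange factor of elongation factor 1, stood at 54.1 CPM in old Tet1KO against 61.5 CPM in old WT. Eef2k, the kinase that inhibits elongation factor 2, stood at 30.4 CPM in old Tet1KO against 37.6 CPM in old WT. For Eif5a, Eef1b2 and Eef2k the levels of old Tet1KO and old WT sets overlapped.

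Elongator, which modifies wobble bases of tRNA and shares Dph3 with the diphthamide pathway in yeast, was followed through 7 genes. All were tested and none was called in any comparison, beside 0.0% to 0.0416% of all genes, so nothing is read from that. The median log2 change of the 7 genes of Elongator was 0.15 in young Tet1KO against young WT and 0.41 in old Tet1KO against old WT. For all genes it was 0.003 and -0.01. Of the most abundant Elongator genes, Elp2 stood at 77.3 CPM in old Tet1KO against 54.8 CPM in old WT. The Elp2 sets overlapped, at 102.3 and 52.2 CPM in old Tet1KO against 64.6 and 44.95 CPM in old WT. Elp5 stood at 31.3 CPM in old Tet1KO against 41.03 CPM in old WT, and Elp4 at 27.2 CPM in old Tet1KO against 35.4 CPM in old WT. Their sets did not overlap, which held for 41.4% of all genes tested. Cbr1 was counted for its symbol alone, which it shares with the yeast gene whose product reduces Dph3. A shared symbol does not make it a gene of the pathway, and its values are not read as such. Cbr1 stood at 0.861 CPM in old Tet1KO against 1.41 CPM in old WT and was not called in any comparison.

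Around Dph6, 14 annotated genes start within 500 kb and only Aqr and Zfp770 were expressed enough to be tested. Gm13972 overlaps Dph6 on the other strand and had 2 counts in 94 oocytes, too few to alter the Dph6 count. Zfp770, a zinc finger gene 314947 bases away, stood at 29.7 CPM in set Old_Tet1-/-_209 and 10.3 CPM in set Old_Tet1-/-_315, against 7.31 and 12.3 CPM in the old WT sets Old_WT_247 and Old_WT_365. In set Young_Tet1-/-_201 it stood at 44.5 CPM, against 11.6 CPM in T146 and 4.65 to 7.99 CPM in the young WT sets. Oocyte Young_Tet1-/-_201_8 had 10.4 CPM, and the other 6 of its set 26.9 to 67.6 CPM.

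Aqr, an RNA helicase of the spliceosome, was at 24.1 and 23.4 CPM in sets Old_Tet1-/-_209 and Old_Tet1-/-_315, against 16.4 and 16.5 CPM in sets Old_WT_247 and Old_WT_365. It stood at 29.3 CPM in set Young_Tet1-/-_201 and 13.53 CPM in set T146, with young WT sets from 10.03 CPM, and no set but these 3 high ones exceeded 16.5 CPM. Here too Young_Tet1-/-_201_8 was the lowest of its set, at 17.8 CPM, with the other 6 between 18.6 and 42.2 CPM. High Aqr and Zfp770 thus went with low Dph6 in sets Young_Tet1-/-_201 and Old_Tet1-/-_209, while the oocyte of set Old_Tet1-/-_315 had low Dph6 with a Zfp770 level inside the range of old WT.

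Of 8811 genes with a mean of at least 5 CPM, those whose pattern over the 94 oocytes was most like that of Dph6, by Pearson's r of log2(CPM + 1), were Ccdc73 (r = 0.871), the gene model Gm47180 (0.821) and Meis2, a homeobox gene (0.816). The most opposite were Zfp770 (-0.791), BC052040 (-0.734) and Ap1m2, an adaptor subunit of vesicle transport (-0.718). These values describe oocytes that share sets, and Dph6 forms separate clusters. Within the 82 oocytes above the gap r was 0.483 for Ccdc73, 0.214 for Gm47180, 0.499 for Meis2, -0.491 for Zfp770, -0.248 for BC052040 and -0.280 for Ap1m2. Within the 12 below it r lay between -0.00238 and 0.377, and was positive for Zfp770 (0.377), BC052040 (0.299) and Ap1m2 (0.295). With 12 oocytes from 3 sets and a narrow range of Dph6, nothing is read from the sign of these values.

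Of these 6 genes, 4 lie on chromosome 2, as do 664 of the 8811 compared (7.54%). The ranking uses the old Tet1KO oocytes whose low counts chose Dph6, so nothing is read from that share. Meis2 is 1.21 Mb from Dph6, BC052040 0.927 Mb and Ccdc73 9.50 Mb, while Gm47180 and Ap1m2 are on chromosome 9. Ccdc73 stood at 6.49 and 6.79 CPM in sets Old_Tet1-/-_209 and Old_Tet1-/-_315, against 53.9 and 33.1 CPM in sets Old_WT_247 and Old_WT_365. It was at 17.1 CPM in set Young_Tet1-/-_201, where Young_Tet1-/-_201_8 had 49.97 CPM and the other 6 had 9.69 to 14.4 CPM. So for Ccdc73, as for Dph6, the 1 oocyte stood with the WT range and the rest of the set with old Tet1KO.

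Meis2 did not split that way. It stood at 800.9 and 944.8 CPM in sets Old_Tet1-/-_209 and Old_Tet1-/-_315, against 1710 and 1192 CPM in sets Old_WT_247 and Old_WT_365, and at 876.5 CPM in set Young_Tet1-/-_201. Oocyte Young_Tet1-/-_201_8 had 1010 CPM, just above the 754.2 to 951.1 CPM of the other 6. BC052040 was at 48.5 and 31.6 CPM in sets Old_Tet1-/-_209 and Old_Tet1-/-_315, against 17.2 and 18.6 CPM in old WT, and Young_Tet1-/-_201_8 had 20.3 CPM where its set otherwise ran from 40.1 to 77.8 CPM. Set, genotype and the parentage of the females cannot be told apart here, since only Tet1KO sets held low oocytes and no label gives the alleles on chromosome 2.

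**Figure D4:**
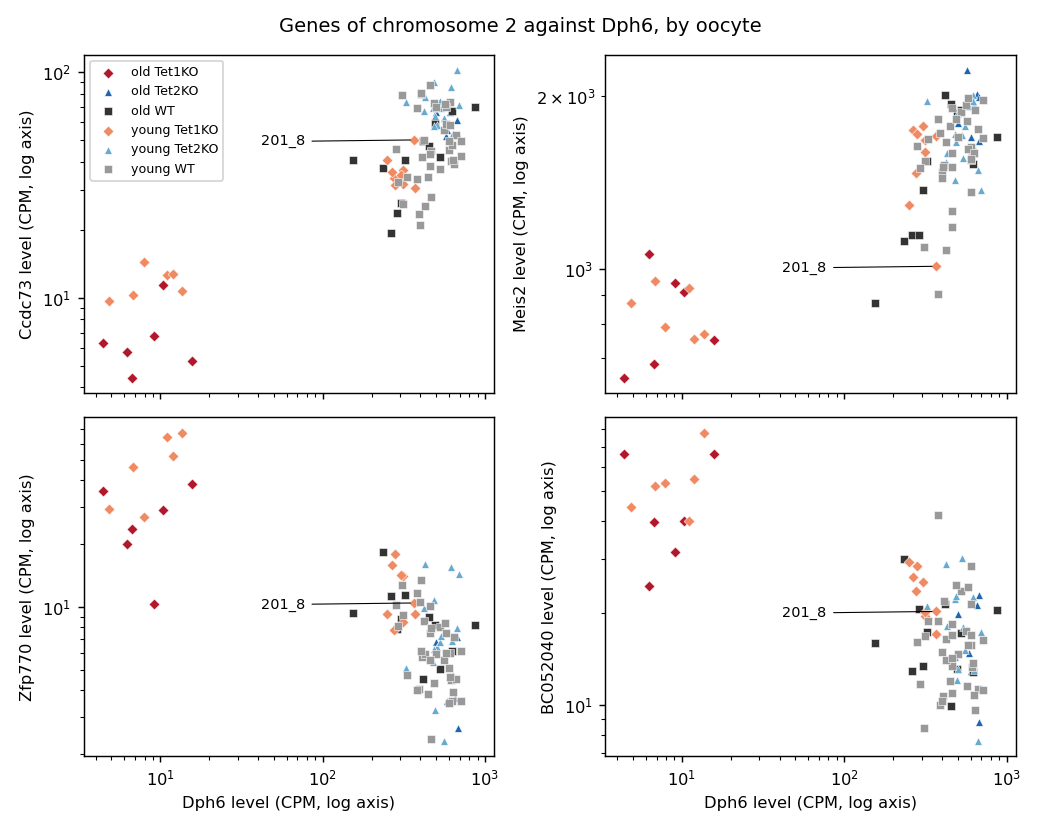
Level of 4 chromosome 2 genes against Dph6 in each oocyte (CPM, both axes log), with symbols by group and oocyte Young_Tet1-/-_201_8 named in each panel. The low Dph6 oocytes of Tet1KO lie low for Ccdc73 and Meis2 and, but for the oocyte of set Old_Tet1-/-_315 at 10.3 CPM, high Zfp770, and Young_Tet1-/-_201_8 lies with the high Dph6 cluster for Ccdc73, Zfp770 and BC052040.

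In primordial germ cells the order of the genes was another one. Eef2 stood at 1609.22 FPKM (fragments per length of gene, scaled to the library) in the library labelled Tet2KO and 1688.65 FPKM in WT, far above every synthesis gene. Dph6 was at 11.01 FPKM in the library labelled Tet2KO and 9.09 FPKM in WT, the fifth of the 8 in each library. Dph1 (22.8 and 20.25 FPKM), Dph3 (15.87 and 17.29) and Dnajc24 (11.07 and 11.78) stood above it, and Dph5 (7.44 and 7.01), Dph7 (6.19 and 5.51) and Dph2 (5.75 and 5.54) below, the library labelled Tet2KO given before WT each time. Dph6 thus led the synthesis genes per length in most oocyte sets but not in PGCs, and Dnajc24, near the floor in oocytes, was among the higher ones there. The scales differ, so no ratio between oocytes and PGCs was taken.

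With 1 library on each side there was no test. Tet2 itself stood at 2.96 FPKM in the library labelled Tet2KO and 3.19 FPKM in WT, so its level does not check that label. In the authors' deposited table the log2 ratio, labelled Tet2KO over WT, was 0.28 for Dph6 (false discovery rate 0.00801) and -0.07 for Eef2 (1.21e-25). That table called 0 of the 8 genes changed, beside 3.3% of its 19004 rows. The FPKM of the 8 genes differed between the libraries by ratios of 0.918 to 1.21. All 6 markers of the somatic gonad were lower in the library labelled Tet2KO, among them Wt1 at 9.45 FPKM against 21.7 FPKM in WT. Of these, Amh (0.06 against 0.16) and Sox9 (0.55 against 0.76) were near the floor. Among germ cell markers Stra8 (71.57 against 138.33), Sycp3 (22.24 against 41.41) and Ddx4 (93.69 against 128.38) were lower there too. Dppa3, Dazl, Pou5f1 and Kit were higher. In such pooled cells, fewer cells of a type and less RNA per cell cannot be told apart, and the part of somatic cells in the members' values was not tested.

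**Figure D5:**
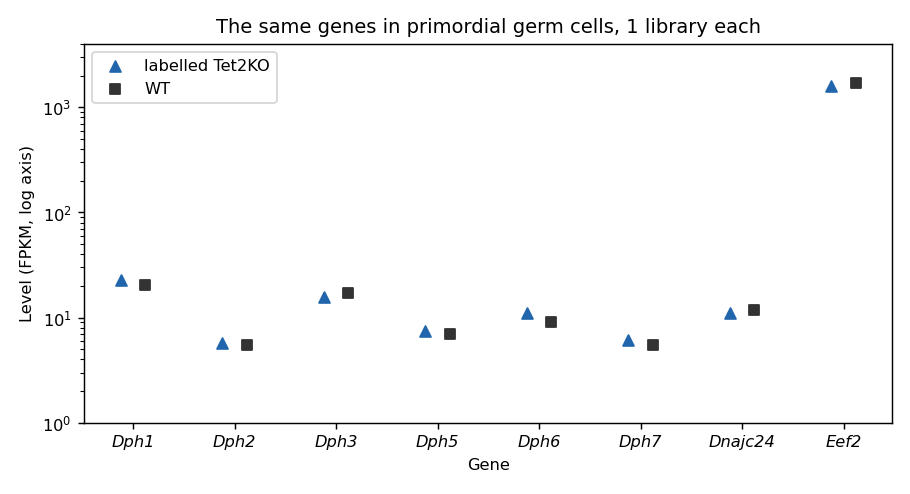
FPKM (log axis) of the 8 genes in PGCs, with triangles for the library labelled Tet2KO and squares for the WT library, 1 library each. Eef2 lies at 1609.22 and 1688.65 FPKM and Dph6, at 11.01 and 9.09 FPKM, lies among the other synthesis genes.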

How the data were processed

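The members, gene lists and tests were chosen with earlier results of these data known. The authors deposited the oocyte data as raw gene counts, made per the file headers with featureCounts 1.6.2 and GENCODE mouse release 17, at mapping quality 30 or more, without strand, and with multi-mapped and overlapping reads counted. HISAT2, SAMtools and mm10 appear in the submitters' processing notes, their versions not given in the sources used here. The authors deposited the PGC table as FPKM, with a log2 ratio and a false discovery rate that exceeds 1 in places and is treated as a score. Depth behind the FPKM is unknown. Of 135 samples described, 39 had no matching column and contradictory or unmatched labels, and 39 count columns matched no sample; none was used.

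Counts were summed per set, the oocytes whose titles share an identifier, and the set was taken as the replicate. The labels do not say what the oocytes of a set share. Genes with at least 1 CPM in at least 2 sets (14418) entered edgeR's quasi-likelihood F test (version 4.0.16 under R 4.3.3, TMM factors) on all 13 sets, with a term for the naming series (numbered against T- and S-series names), which also separates the 2 count tables. The fit of old Tet2KO against old WT had no such term, as group and series coincide. P-values were adjusted by Benjamini-Hochberg over all genes tested, with a threshold of 0.05. SE is the absolute log2 change over the square root of F. Set means are given ± SD. CPM per kb divides by exon length. DESeq2 1.42.0, limma 3.58.1, other scalings and filters, each naming series alone, and each set or doubted oocytes left out were tried as alternatives. Of 342 pairs of oocytes within sets, 0 were identical. The script was tested on simulated data. Intervals and the level that a count of 0 allows (3 counts) cover counting error only.

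The genes named are the members, any gene overlapping Dph6, tested genes starting within 500 kb, the 3 most like and 3 most opposite to Dph6 by Pearson's r, the 3 most abundant genes of the elongation and Elongator lists with any that pass, Cbr1, Tet1 and Tet2.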

Additional observations from a re-analysis of the deposited data

Results flagged for a closer look

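Of 52 groups of 4 to 10 samples looked at (the young WT sets for each member, and the oocytes of each set for members averaging at least 10 counts), 5 held a value that stood far from the rest. Chance flags about 1 group in 20. The Dph6 level of oocyte Young_Tet1-/-_201_8, 365.3 CPM, stood far above the other 6 oocytes of set Young_Tet1-/-_201. Eef2 stood apart in oocyte Young_Tet1-/-_201_4, at 35.6 CPM, and in set Young_WT__246 among the young WT sets, at 15.5 CPM. Dph3 stood apart in oocyte T2147 of set T214, at 25.7 CPM. Among the young WT sets Dnajc24 was highest in T231, at 0.571 CPM, on 15 counts.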

How the results depend on the processing

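No paired analysis was possible because the sets of different groups carry different identifiers and share no number. In old Tet1KO against old WT, which chose Dph6, the count of members called is a description and nothing is read from its changes. That count was 2 with DESeq2 (Dph6 and Eef2), 0 with limma on set means, 0 without oocyte Young_Tet1-/-_201_8, and 0 to 1 with each set left out in turn, being 0 without sets T213, Old_WT_247, Old_Tet1-/-_209 or Old_Tet1-/-_315. In that comparison DESeq2 called 313 genes in all and limma 5, and 0 were called without oocyte Young_Tet1-/-_201_8. The log2 change of Dph6 ran from -5.81 to -4.66 with a set left out. Without oocyte Young_Tet1-/-_201_8 it stayed at -5.36, with an SE of 1.04 in place of 0.62. Elsewhere the count was 0, except for 1 (Dph6) with no filter in young Tet1KO against young WT, 1 (Dph6) with no filter in young Tet1KO against young Tet2KO, 1 (Eef2) with DESeq2 in old WT against young WT, and 1 (Dph6) with DESeq2 and 1 (Dph6) with no filter in the Tet1KO change of old less that of young oocytes, which uses the old sets that chose Dph6. In that order, these settings called 252, 536, 331, 17 and 199 genes in all. No filter means every gene with a count was tested. The cause was not tested in any of these.

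Directions turned in values that passed no test. Without the naming series term the log2 change turned to 0.27 for Eef2 in young Tet1KO against young WT and 0.27 against young Tet2KO, to 0.071 for Dph6 and -0.000231 for Eef2 in young Tet2KO against young WT, to -0.90 for Dph7, -0.28 for Dph6, -0.027 for Dph5 and -0.17 for Dph2 in old WT against young WT, and to -0.19 for Dph7 in young Tet1KO against young Tet2KO. Numbered sets alone gave 0.32 for Dph7 and 0.18 for Eef2 in young Tet1KO against young WT, and -0.25 for Dph6 and -0.15 for Dph5 in old WT against young WT. T- and S-series sets alone gave 0.23 for Dph5 in young Tet1KO and 0.067 for Dph6 in young Tet2KO, each against young WT. Library totals gave -0.020 and limma -0.013 for Dph3 in old Tet1KO against old WT, and limma gave -0.035 for Dph2 and -0.016 for Eef2 in old against young Tet2KO. Without oocyte Young_Tet1-/-_201_8, Dph2 turned to 0.048 in young Tet1KO against young WT and Dph7 to -0.034 in old WT against young WT, where no filter gave -0.017 and the filter at 5 CPM -0.059 for Dph7.

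With each set left out in turn, these uncalled log2 changes crossed 0. In young Tet1KO against young WT they ran from -0.43 to 0.54 for Dph2, -0.77 to 0.22 for Dph5, -0.49 to 0.38 for Dph7 and -0.23 to 0.24 for Eef2. In young Tet2KO against young WT they ran from -0.097 to 0.31 for Dph3 and -0.46 to 0.063 for Dph6. In old Tet1KO against old WT, Dph3 ran from -0.33 to 0.56, in old Tet2KO against old WT from -0.24 to 0.028, and in the difference of the Tet1KO changes from -0.78 to 0.094. In old WT against young WT they ran from -0.24 to 0.70 for Dph2, -0.49 to 0.88 for Dph5, -0.42 to 2.00 for Dph6 and -0.56 to 0.28 for Dph7. In old against young Tet2KO they ran from -0.11 to 0.64 for Dph1, -0.070 to 0.35 for Dph3 and -0.46 to 0.087 for Dph7. In young Tet1KO against young Tet2KO they ran from -0.61 to 0.094 for Dph1, -0.002128 to 0.99 for Dph5 and -0.47 to 0.001074 for Eef2. Among values that did not cross 0, Dph1 ran from 0.79 to 2.09 in old Tet2KO against old WT and from 0.44 to 1.17 in young Tet2KO against young WT, Dph3 from 0.18 to 0.88 in young Tet1KO against young WT, Dph5 from -1.09 to -0.70 in young Tet2KO against young WT and Eef2 from -1.35 to -0.90 in old WT against young WT. Of the other values of single members, 1179 kept direction and side of the threshold, 6 came to pass and 6 ceased to. Rescaling the PGC values to TPM turned the direction of no member's ratio.

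Not run, for want of sets: the T- and S-series alone in comparisons with old WT or old Tet1KO, the numbered sets alone in those with Tet2KO, old Tet2KO without S161, and a series term in old Tet2KO against old WT. Members with a mean under 3 CPM over the 94 oocytes (Dph1, Dph2, Dph5, Dnajc24) rest on few counts per oocyte. A group of 1 or 2 sets leaves large changes uncalled.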
